A study of Homo sapiens with 6 samples.

Results

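The mitochondrial genome supplied 38 rows of the count table, out of 59733 in all. They were taken by their chromosome entry, MT, and by no measured value. Of these rows 13 are mRNAs, 2 are rRNAs, 22 are tRNAs, and 1 is an assembled locus without a gene name over the control region. The cells are 8505C, a long-established human cell line from an anaplastic (undifferentiated) thyroid carcinoma, with 3 libraries labelled with a control hairpin (genotype label wild-type) and 3 labelled with a short hairpin RNA against HHEX (genotype label HHEX KD). All samples carry the treatment label untreated and came from cells plated for 24 hours, with RNA taken through an mRNA capture kit. Library names (control1, control2, control3, KD1, KD2, KD3) follow the table. The design text calls them biological replicates, but 2 titles of each group share a first number. If those are not separate cultures, p-values measure only the spread between these libraries. The labels do not say whether either line is 1 clone.

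Mitochondrial DNA is a small circle that is read from both strands as long precursor RNAs by the polymerase POLRMT with the factors TFAM and TFB2M. The tRNAs lie between most of the longer genes like punctuation, and their excision sets the mRNAs and rRNAs free. Most of the mRNAs then receive a short A tail from MTPAP, and the LRPPRC and SLIRP proteins keep many of them stable. The encoded proteins are core subunits of respiratory complexes I, III and IV and of ATP synthase (complex V), which are assembled with many subunits made from nuclear genes. The 2 rRNAs form the scaffold of the mitochondrial ribosome that translates them.

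HHEX, the gene the hairpin targets, lay at 12.6, 12.8 and 11.98 CPM (counts scaled by library size and TMM factor, so that libraries can be compared) in control1, control2 and control3. It lay at 14.8, 7.93 and 7.12 CPM in the libraries labelled KD1, KD2 and KD3, so KD1 goes against its label and HHEX did not pass the test between the groups (adjusted p = 0.527 by the quasi-likelihood test of edgeR, with Benjamini-Hochberg correction). Directions given for the libraries labelled HHEX shRNA include KD1. Total counts over named genes were 13333245 to 15144176. Of the thyroid markers, TG, TSHR, SLC5A5 and DIO1 stayed under 1 CPM in every library, while NKX2-1 lay at 18.0 to 50.5 CPM. Fibroblast, leukocyte and endothelial marker lists summed to 14.4 to 55.8, 2.99 to 4.78 and 5.00 to 16.2 CPM. KD1 and KD2 stood apart from the other 4 libraries in the mtDNA genes, as shown gene by gene hereafter. Over the 16 mtDNA genes that were tested, the mean chi-square per gene was 124 between KD1 and KD2 and 79.7 between control1 and control3, where libraries equal up to counting noise give about 1. Between KD1 or KD2 and any of the other 4 libraries it was 4002 to 4743. No pair of libraries was thus a duplicate.

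The sequences shown first are those on which counting turns: transcript ends, shared bases and near-identical nuclear copies. They come from the GENCODE release 29 transcripts of GRCh38, whose coordinates and strands equal those of the table for all 37 named genes. By their annotated spans, 7 of the 13 mRNAs end in a complete stop codon and 6 end in an incomplete one (T or TA), which the A tail completes. The last base of the stop codon annotated for MT-ATP6 is also the first base of MT-CO3. The last 30 bases of 2 rRNAs and 4 mRNAs follow, with the stop codon or its encoded part in capitals. They are written 5′ to 3′ and lie on the plus strand of chromosome MT.
MT-RNR1 (MT:1572-1601): aagtgtactggaaagtgcacttggacgaac
MT-RNR2 (MT:3200-3229): tatacccacacccacccaagaacagggttt
MT-CO1 (MT:7416-7445): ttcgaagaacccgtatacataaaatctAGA
MT-ATP6 (MT:9178-9207): gtaagcctctacctgcacgacaacacaTAA
MT-ND4 (MT:12108-12137): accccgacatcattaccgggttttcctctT
MT-CYB (MT:15858-15887): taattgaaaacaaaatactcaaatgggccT

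Some neighbours share bases, so a read can fall in both. MT-ATP8 and MT-ATP6 overlap by 46 bases, MT-ND4L and MT-ND4 by 7, and MT-ATP6 and MT-CO3 by 1. The longest overlap is shown with the start codon of MT-ATP6 and the stop codon of MT-ATP8 in capitals.
MT-ATP8 and MT-ATP6 overlap (MT:8527-8572, plus strand): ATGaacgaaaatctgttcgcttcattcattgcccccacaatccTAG

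In the controls the most abundant species per length was MT-CO1, the catalytic core subunit of cytochrome c oxidase, at 7506 ± 726 CPM per kilobase (SD, n = 3). MT-RNR2, the large ribosomal RNA, followed at 5704 ± 389, then MT-CO2 at 4993 ± 761, MT-CO3 at 3402 ± 471 and MT-ND4 at 3125 ± 331 CPM per kilobase. MT-RNR2 overlapped with MT-CO2 in the range of its control libraries, and MT-CO3 with MT-ND4, while MT-CO1 stood clear of MT-RNR2. A block of species with overlapping neighbours followed, from MT-CYB at 1553 ± 135 through MT-ATP6, MT-ND2 and MT-RNR1 to MT-ND1 at 1263 ± 111 CPM per kilobase. MT-ND5 lay clear below it at 780 ± 88.0. MT-TP, a tRNA, lay at 552 ± 38.2 and MT-ND6, the only mRNA read from the light strand, at 548 ± 131 CPM per kilobase, and MT-ND6 overlapped with MT-ND3 at 352 ± 106. The lowest were MT-ND4L at 256 ± 21.3 and MT-ATP8 at 63.7 ± 10.6 CPM per kilobase, each clear of its neighbour. The highest mRNA level was 118 times the lowest. MT-ATP8 and MT-ATP6 are translated from 1 shared transcript, yet the row of MT-ATP6 was 23.0 times that of MT-ATP8 per kilobase. MT-ND4L and MT-ND4 share a transcript as well, with a ratio of 12.2. How the counter treated short rows and overlapping reads is not given in the sources used here, and its part in these ratios was not tested.

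**Figure D1:**
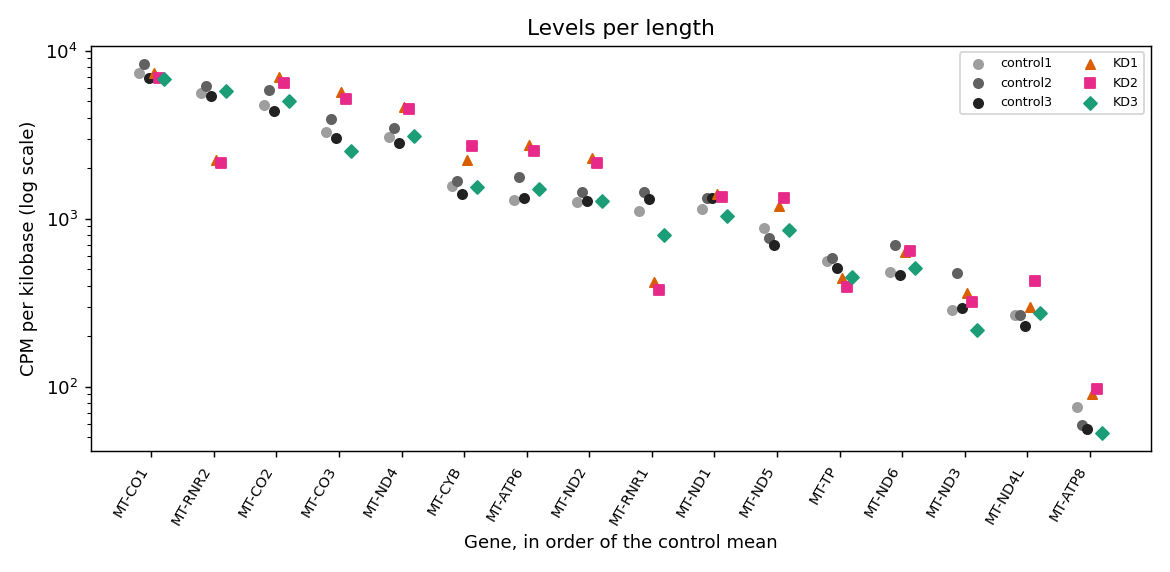
Level of each counted mtDNA gene in CPM per kilobase (log scale) in the 6 libraries, ordered by the control mean. MT-CO1 stands highest and MT-ATP8 lowest in the controls, and KD1 and KD2 lie below the other libraries for MT-RNR1 and MT-RNR2.

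All mtDNA genes together took 3.84%, 4.33% and 3.81% of the counts over named genes in control1, control2 and control3. They took 4.12%, 4.02% and 3.61% in KD1, KD2 and KD3, so the groups overlapped. The difference of the means was −0.0775 percentage points (exact two-sided permutation p = 0.7, where 3 against 3 libraries cannot go below 0.1). The makeup of that total differed more. mRNAs made up 90.6% of the mtDNA counts in KD1 and 90.7% in KD2, against 73.6% in KD3 and 73.3% to 74.8% in the controls. rRNAs made up 9.29% and 9.20% in KD1 and KD2, against 26.4% in KD3 and 25.1% to 26.6% in the controls. Fewer cells of a kind and less RNA per cell cannot be told apart in bulk libraries such as these.

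**Figure D2:**
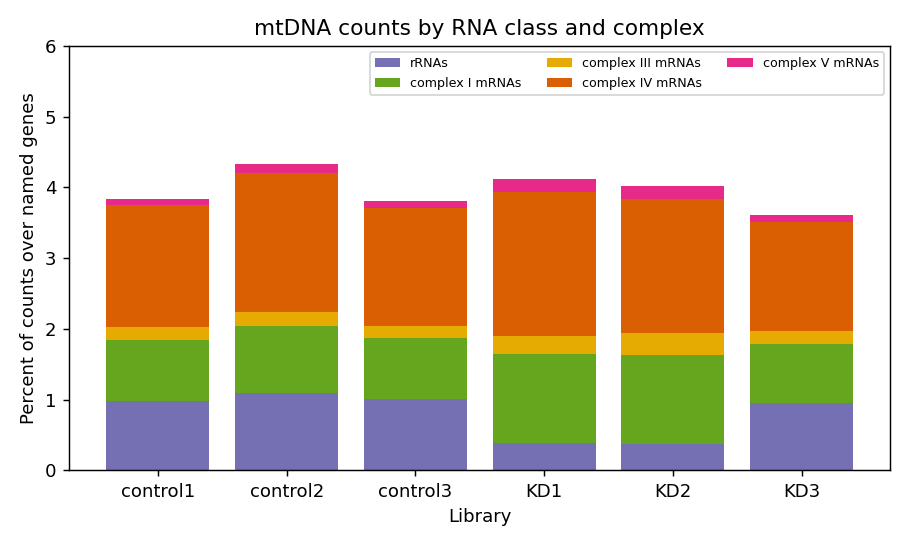
Stacked bars of the percent of counts over named genes taken by mtDNA rRNAs and by the mRNAs of each respiratory complex, 1 bar per library. The bars differ little in height, from 3.61% in KD3 to 4.33% in control2, while the rRNA part is 0.383% in KD1 and 0.370% in KD2 and at least 0.951% in the other 4.

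Of the 37 named mtDNA genes 16 passed the filter on low counts and were tested, and 0 passed edgeR's quasi-likelihood test at an adjusted p under 0.05. Over all 14280 tested genes 26, or 0.182%, passed (0.105% higher and 0.077% lower). At an unadjusted p under 0.05 there were 4 mtDNA genes of 16, MT-RNR1, MT-ATP6, MT-ND5 and MT-TP, beside 20.6% of all tested genes. DESeq2 called 1 mtDNA gene, MT-RNR1, lower, beside 2.7% of the 28322 genes with any count (1.51% higher and 1.19% lower). Many of those rows hold few counts. DESeq2 shares, here and hereafter, may thus understate the share among genes counted as deeply as the members and lists. Without the filter on low counts edgeR called 5, with 3 higher and 2 lower, beside 4.8% of all genes (2.56% higher and 2.24% lower). That fit used the same libraries and tested 28322 genes in place of 14280. Its lower p-values, here and hereafter, therefore bring no evidence from further libraries. Its share of 4.8% also counts the rows with few counts. Positive log2 fold changes were found for 10 of the 13 mRNAs, beside 48.6% of all tested genes, and for 0 of 2 rRNAs. The count of 0 mtDNA genes called by edgeR rested on KD3. Without that library edgeR called 12 mtDNA genes, 9 higher and 3 lower, where 31.6% of all tested genes were called (16.5% higher and 15.1% lower). That fit leaves only KD1 and KD2, which lay close to each other, to stand for HHEX shRNA. The columns do not show whether their titles share a first number. Low p-values without KD3, here and hereafter, rest in part on the closeness of that pair. KD1 is also the library whose HHEX level goes against its label. Without any 1 of the other 5 libraries edgeR called 0 (1 to 2 at an unadjusted p under 0.05). Those fits called at most 1 of their 14588 to 14830 tested genes, so the 0 is not particular to the mtDNA genes.

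The rRNAs lay low in KD1 and KD2. MT-RNR1 (ENSG00000211459, MT:648-1601, plus strand), the RNA of the small ribosomal subunit, lay at 1062, 1369 and 1249 CPM in control1, control2 and control3. It lay at 399, 360 and 758 CPM in KD1 to KD3. All 3 libraries labelled HHEX shRNA were below all controls, as were 13.3% of all tested genes, and KD3 lay between KD1 or KD2 and the controls. The log2 fold change was −1.28 (SE 0.28), which did not pass edgeR's test (adjusted p = 0.102) and did pass DESeq2 (−1.25, adjusted p = 0.000251). It passed edgeR as well without KD3 (−1.67, adjusted p = 3.45e-06), where 31.6% of all tested genes passed. The same held without the filter on low counts (−1.27, adjusted p = 1.00e-10 by edgeR), where 4.8% of all genes passed. That fit had the same libraries and almost the same fold change, and differed in the rows tested. Its p-value is thus no further evidence from libraries. Without KD1 the log2 fold change was −1.13 and without KD2 −1.08 (edgeR adjusted p = 0.33 and 0.329).

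MT-RNR2 (ENSG00000210082, MT:1671-3229, plus strand), the RNA of the large subunit, lies just downstream of MT-RNR1 on the same precursor, with the tRNA MT-TV between them. It lay at 8685, 9575 and 8418 CPM in the controls, against 3487, 3350.15 and 8996 CPM in KD1 to KD3. KD1 and KD2 were thus low, and KD3 lay within the control range. The log2 fold change of −0.75 (SE 0.38) did not pass edgeR's test (adjusted p = 0.292), but did without KD3 (−1.36, adjusted p = 1.32e-05) and without the filter on low counts (−0.75, adjusted p = 0.0239). Without KD1 it was −0.52 and without KD2 −0.51. In KD3 the rRNAs therefore parted, with MT-RNR1 low and MT-RNR2 not. Counts of MT-RNR2 were 8.18, 6.996 and 6.74 times those of MT-RNR1 in the controls, and 8.74, 9.31 and 11.9 times in KD1, KD2 and KD3. The log2 ratio was 2.86 ± 0.148 in the controls and 3.31 ± 0.233 in the libraries labelled HHEX shRNA (SD, n = 3 per group). The groups did not overlap, and the difference of 0.44 reached the smallest exact permutation p the design allows (0.1, adjusted p = 0.3 over the 12 shares and ratios tested).

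The ratio of rRNA to mRNA counts sets the classes against each other. It was 0.342, 0.336 and 0.363 in control1, control2 and control3, and 0.358 in KD3. In KD1 and KD2 it was 0.103 and 0.101. The log2 ratio was −1.53 ± 0.0576 in the controls and −2.69 ± 1.05 in the libraries labelled HHEX shRNA (SD, n = 3 per group), a difference of −1.16 (exact two-sided permutation p = 0.3, adjusted p = 0.514). The difference was −1.77 without KD3. The rRNA share of all counts was 0.978%, 1.09% and 1.01% in the controls and 0.383%, 0.370% and 0.951% in KD1, KD2 and KD3, a difference of −0.458 percentage points (exact permutation p = 0.1, adjusted p = 0.3). How the capture step keeps RNAs with short or no A tails is not given in the sources used here, and its part in the rRNA counts was not tested. The list of mostly nuclear noncoding RNAs, which held MALAT1, NEAT1 and 4 others, summed to 982 and 1079 CPM in KD1 and KD2, 1639 in KD3 and 1384 to 2392 CPM in the controls. Of its 5 tested members 0 passed edgeR's test (1 at an unadjusted p under 0.05, beside 20.6% of all tested genes), and DESeq2 called 1, NEAT1, lower, beside 1.19% of its genes. The part of RNA quality in the rRNA values was not tested.

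**Figure D3:**
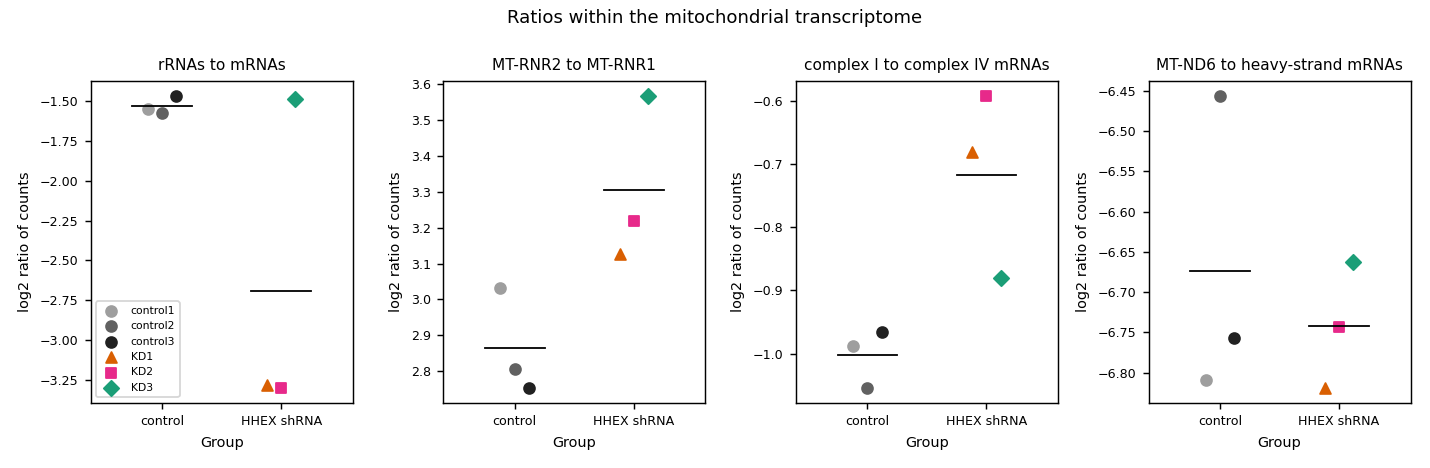
Log2 ratios of counts within the mitochondrial transcriptome in each library, with a bar at the mean of each group of 3. For rRNAs to mRNAs KD3 lies among the controls and KD1 and KD2 near −3.3, while MT-RNR2 to MT-RNR1 and complex I to complex IV are higher in all 3 libraries labelled HHEX shRNA than in any control.

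Complex I, the proton-pumping NADH dehydrogenase, takes 7 subunits from mitochondrial DNA. MT-ND2, MT-ND4 and MT-ND5 form its antiporter-like pump modules, and their mRNAs shared a pattern. MT-ND2 (MT:4470-5511) lay at 1310.39, 1505 and 1336 CPM in the controls, against 2402, 2244 and 1328 CPM in KD1 to KD3. MT-ND4 (MT:10760-12137), the most abundant mRNA of the complex, lay at 4235, 4793 and 3890.04 CPM in the controls, against 6410.09, 6158 and 4308 CPM in KD1 to KD3. MT-ND5 (MT:12337-14148) lay at 1585, 1383 and 1270.4 CPM in the controls, against 2158, 2408 and 1550.22 CPM in KD1 to KD3. For these 3 genes KD1 and KD2 were above all controls and KD3 was within the control range. The log2 fold changes were 0.52 (SE 0.24), 0.39 (SE 0.22) and 0.53 (SE 0.21), none of which passed edgeR's test (adjusted p = 0.249, 0.34 and 0.203). Without KD3 they were 0.77, 0.57 and 0.72 and passed (edgeR adjusted p = 0.000462, 0.0061 and 0.00153). Without KD1 they were 0.37, 0.28 and 0.49, and without KD2 0.44, 0.32 and 0.40. Without the filter on low counts MT-ND2 and MT-ND5 passed too (edgeR adjusted p = 0.0428 and 0.0412).

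MT-ND4L (MT:10470-10766), a small membrane subunit encoded on the same transcript as MT-ND4, lay at 79.5, 79.7 and 68.7 CPM in the controls, against 89.0, 127 and 81.3 CPM in KD1 to KD3. It was the only mRNA of the 13 whose groups did not overlap, beside 24.9% of all tested genes in either direction and 11.6% higher. Its log2 fold change of 0.38 (SE 0.18) did not pass edgeR's test (adjusted p = 0.261), but did without KD3 (0.53, adjusted p = 0.0158). Without KD2 it was 0.17 (adjusted p = 0.705 by edgeR). KD1 and KD2, alike in MT-ND4, differed in MT-ND4L by the largest margin of any of the 13 mRNAs on the log2 scale (0.23 and 0.74 above the control mean). MT-ND1 (MT:3307-4262), which lines the quinone site and sits directly after the rRNAs on the precursor, lay at 1085, 1277 and 1261 CPM in the controls, against 1334, 1282 and 990 CPM in KD1 to KD3. Its log2 fold change was −0.01 (SE 0.17, adjusted p = 0.987 by edgeR), with KD1 and KD2 slightly above and KD3 below all controls. MT-ND3 (MT:10059-10404), a subunit with a loop near that site, lay at 99.2, 164 and 102 CPM in the controls, against 124, 111 and 75.3 CPM in KD1 to KD3, a log2 fold change of −0.24 (SE 0.24, adjusted p = 0.601 by edgeR). Here control2 stood high, and without it the value was 0.06.

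MT-ND6 (MT:14149-14673, minus strand) is the one mRNA from the light strand and so reports on the other precursor. It lay at 252, 367 and 244 CPM in the controls, against 333, 338 and 266 CPM in KD1 to KD3. The groups overlapped, with control2 highest, and the log2 fold change was 0.12 (SE 0.19, adjusted p = 0.745 by edgeR), with values of 0.0137 to 0.35 when 1 library was left out, the lowest without control3 and the highest without control2. Its counts were 0.00892, 0.0114 and 0.00925 of those of the 12 heavy-strand mRNAs in the controls and 0.00886, 0.00933 and 0.00987 in KD1, KD2 and KD3. The log2 ratio was −6.67 ± 0.191 in the controls and −6.74 ± 0.0785 in the libraries labelled HHEX shRNA, a difference of −0.07 (exact permutation p = 0.8, adjusted p = 0.873), or 0.04 without control2. No source used here says whether strand was used in counting, so reads of the heavy-strand precursor over this stretch cannot be told from MT-ND6. The part of the mRNA capture step in the MT-ND6 counts was not tested.

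Complex III takes only MT-CYB (MT:14747-15887), cytochrome b, which holds both hemes b of the quinone cycle. It lay at 1787, 1917 and 1609.79 CPM in the controls, against 2555, 3082 and 1769 CPM in KD1 to KD3. As in complex I, KD1 and KD2 were above all controls while KD3 was among them. The log2 fold change was 0.48 (SE 0.22, adjusted p = 0.263 by edgeR), and 0.69 without KD3 (edgeR adjusted p = 0.00197). It was 0.29 without KD2 (edgeR adjusted p = 0.658).

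The 3 mRNAs of complex IV, cytochrome c oxidase, differed among themselves. MT-CO1 (MT:5904-7445), whose protein carries the oxygen-reducing site, lay at 11341, 12792 and 10589 CPM in the controls, against 11349, 10637 and 10425 CPM in KD1 to KD3. Its log2 fold change was −0.10 (SE 0.20, adjusted p = 0.804 by edgeR), and it did not pass without KD3 either. MT-CO2 (MT:7586-8269), which accepts the electrons from cytochrome c, lay at 3233, 4003 and 3010.45 CPM in the controls, against 4797, 4412 and 3434 CPM in KD1 to KD3. MT-CO3 (MT:9207-9990), the third core subunit, lay at 2572, 3075 and 2355 CPM in the controls, against 4466, 4049.51 and 1969.68 CPM in KD1 to KD3. KD1 and KD2 were above all controls for MT-CO2 and MT-CO3, whereas KD3 lay below all controls for MT-CO3. The log2 fold changes were 0.30 (SE 0.21) and 0.39 (SE 0.30), with adjusted p = 0.429 and 0.478 by edgeR. Without KD3 they were 0.45 and 0.70 (edgeR adjusted p = 0.0294 and 0.00241). Without KD1 they were 0.20 and 0.18 (edgeR adjusted p = 0.767 and 0.843).

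MT-CO1 thus took a smaller part of the mRNA pool in KD1 and KD2. It supplied 39.8%, 39.3% and 39.7% of mtDNA mRNA counts in the controls, 38.3% in KD3, and 29.9% and 29.1% in KD1 and KD2. The parts that were larger there belonged to several genes, such as MT-CO3 with 11.8% and 11.1% against 8.84% to 9.44% in the controls. MT-ND4 supplied 16.9% and 16.8% against 14.6% to 14.9%. Counts of complex I mRNAs were 0.504, 0.482 and 0.512 of those of complex IV in the controls and 0.623, 0.663 and 0.543 in KD1, KD2 and KD3. MT-CO1 held most of the complex IV counts, while MT-CO2 and MT-CO3 were above all controls in KD1 and KD2. This ratio thus does not stand for every complex IV mRNA. The log2 ratio was −1.002 ± 0.0463 in the controls and −0.72 ± 0.147 in the libraries labelled HHEX shRNA (SD, n = 3 per group), and the groups did not overlap. The difference of 0.28 reached the smallest exact permutation p possible (0.1, adjusted p = 0.3).

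Complex V, the ATP synthase, takes MT-ATP6, which forms the proton half-channels, and MT-ATP8, a small stator subunit. MT-ATP6 (MT:8527-9207) lay at 886, 1207 and 905 CPM in the controls, against 1873, 1727 and 1025 CPM in KD1 to KD3. KD1 and KD2 were above all controls and KD3 among them. Its log2 fold change of 0.63 (SE 0.25) was the highest of the 13 mRNAs and did not pass edgeR's test (adjusted p = 0.21), but did without KD3 (0.87, adjusted p = 0.000698) and without the filter on low counts (0.63, adjusted p = 0.00833). Without KD1 it was 0.46 and without KD2 0.54. MT-ATP8 (MT:8366-8572) lay at 15.7, 12.2 and 11.7 CPM in the controls, against 18.7, 19.9 and 10.99 CPM in KD1 to KD3, the lowest mRNA in every library. Its log2 fold change was 0.33 (SE 0.25, adjusted p = 0.475 by edgeR), and 0.57 without KD3 (edgeR adjusted p = 0.0267). It was 0.18 without KD2 (edgeR adjusted p = 0.842) and 0.50 without control1 (edgeR adjusted p = 0.414).

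**Figure D4:**
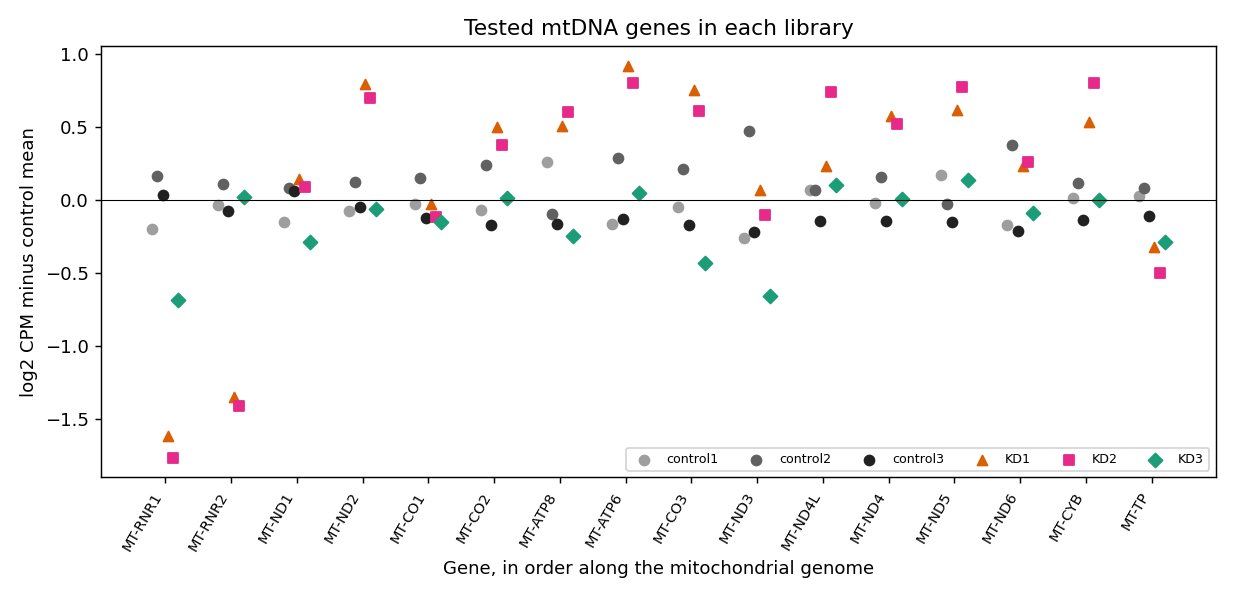
Log2 CPM of each tested mtDNA gene minus the mean of the 3 controls, by library, with genes in their order along the genome. KD1 and KD2 lie near −1.6 to −1.8 for MT-RNR1 and −1.3 to −1.4 for MT-RNR2, and above the control mean for 11 of the 13 mRNAs.

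Along the precursor the difference did not simply grow with distance. MT-ND1, next to the rRNAs, lay near 0, MT-ND2 at 0.52, MT-CO1 at −0.10, MT-ATP6 at 0.63 and MT-ND3 at −0.24. Spearman's rho between start position and log2 fold change was 0.514 over the 15 mRNAs and rRNAs and 0.253 over the 13 mRNAs alone. Both include MT-ND6, which comes from the other precursor, so its start is not a distance along this one. For GC content rho was 0.113 over the 15 and 0.085 over the 13, and for A content −0.02 and 0.432. These are descriptions across genes that share the same libraries.

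Of the 22 tRNA rows, which number 14 on the plus and 8 on the minus strand, only MT-TP (ENSG00000210196, tRNA for proline) was counted to any depth. Its raw counts were 511, 599 and 533 in control1, control2 and control3 and 446, 371 and 435 in KD1, KD2 and KD3. In CPM it lay at 38.2, 39.8 and 34.7 in the controls and at 30.1, 26.5 and 30.7 in the libraries labelled HHEX shRNA. All of the latter were below all controls, as were 13.3% of all tested genes. The log2 fold change of −0.37 (SE 0.14) did not pass edgeR's test (adjusted p = 0.191), and passed without KD3 (−0.38, adjusted p = 0.0467). As a share of all counts tRNAs lay at 0.00382% ± 0.000165 in the controls and 0.00287% ± 0.00018 in the libraries labelled HHEX shRNA (SD, n = 3 per group, exact permutation p = 0.1, adjusted p = 0.3). Almost all of that share is MT-TP. As for MT-ND6, no source used here says whether strand was used in counting. Reads of a precursor over this stretch therefore cannot be told from the tRNA. MT-TT, the tRNA for threonine, is the nearest neighbour of MT-TP and of similar length, and had 0 counts in all 6 libraries. The pair is shown 5′ to 3′ on the strand of each gene.
MT-TP (MT:15956-16023, minus strand): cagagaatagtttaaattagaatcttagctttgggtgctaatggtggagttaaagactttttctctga
MT-TT (MT:15888-15953, plus strand): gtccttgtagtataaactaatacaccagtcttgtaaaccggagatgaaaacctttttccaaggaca

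A further 4 tRNA rows held at most 2 counts in a library. MT-TF had 1 count in control2, MT-TE 2 in control3, MT-TY 2 in KD2 and 2 in control2, and MT-TC 2 in KD2 and 1 in KD3. The other 17, MT-TV, MT-TL1, MT-TI, MT-TQ, MT-TM, MT-TW, MT-TA, MT-TN, MT-TS1, MT-TD, MT-TK, MT-TG, MT-TR, MT-TH, MT-TS2, MT-TL2 and MT-TT, were at 0 in all 6 libraries. A count of 0 allows up to 3 counts, or 0.195 to 0.224 CPM, for counting error only. Apart from MT-TP, the tRNAs were thus not detectable at this depth with this library type. The tRNA rows, that of MT-TP included, say nothing of the tRNA pool.

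The unnamed assembled locus (MT:1-437, plus strand) covers part of the control region, the stretch with the promoters and the heavy-strand origin of replication. Its raw counts were 312, 469 and 140 in the controls and 1043, 971 and 238 in KD1, KD2 and KD3. That is 23.3, 31.1 and 9.11 CPM against 70.3, 69.4 and 16.8 CPM. KD1 and KD2 were above all controls and KD3 was among them, as for the mRNAs MT-ND2, MT-ND4, MT-ND5, MT-CYB, MT-CO2 and MT-ATP6. The locus stayed out of the test, since it names no gene.

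Copies of mitochondrial DNA in the nuclear genome can take or lend reads. The table names 407 of them, 43 with any count. They summed to 109, 137 and 109 CPM in the controls and 183, 193 and 108 CPM in KD1 to KD3, or 0.284% to 0.478% of the mtDNA counts. The 3 copies with at least 10 CPM in a library lie side by side on chromosome 1. MTATP6P1 lay at 51.2, 75.2 and 49.1 CPM in the controls, against 88.5, 86.2 and 51.8 CPM in KD1 to KD3, so its libraries ranked as those of MT-ATP6 but for control1 and control3. MTND2P28, the copy of MT-ND2, lay at 46.0, 46.3 and 48.0 CPM and at 79.5, 92.1 and 45.3 CPM, and MTCO1P12 at 9.57 to 11.1 CPM and 9.37 to 12.6 CPM. None of them passed edgeR's test (adjusted p = 0.403, 0.192 and 0.715). The copies are 98.5%, 98.2% and 98.6% identical to their mtDNA genes, with identical runs of up to 141, 266 and 243 bases, so that reads within such runs cannot be placed and these rows are uncertain. The 60 bases with the most differences between MT-ATP6 and its copy hold only 3, given in capitals.
MT-ATP6 (MT:8642-8701): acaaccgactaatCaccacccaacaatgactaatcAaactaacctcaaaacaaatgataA
MTATP6P1 (chr1:633811-633870): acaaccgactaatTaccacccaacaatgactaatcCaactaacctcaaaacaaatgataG

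The respiratory subunits encoded in the nucleus spread less between libraries in their median than the mtDNA mRNAs. Of 76 tested nuclear subunits 0 passed edgeR's test (6 at an unadjusted p under 0.05, beside 20.6% of all tested genes), and DESeq2 called 1, beside 2.7% of its genes. Their median log2 fold change was 0.03, beside 0.38 for the 13 mtDNA mRNAs and −0.01 over all tested genes. Their medians were 0.23, 0.05 and −0.07 in KD1, KD2 and KD3, within the −0.13 to 0.21 of the controls save for KD1, whereas mtDNA mRNAs stood at 0.51, 0.60 and −0.06 beside −0.14 to 0.15. By complex, the medians were −0.01 for 34 subunits of complex I, 0.22 for the 4 of complex II, which has no mtDNA subunit, 0.05 for 9 of complex III, 0.03 for 11 of complex IV and 0.01 for 18 of complex V. ATP5MC1, a gene for the rotor ring subunit of ATP synthase and the 1 called by DESeq2, lay at 37.1, 43.0 and 41.6 CPM in the controls, against 79.7, 66.6 and 45.9 CPM in KD1 to KD3 (log2 fold change 0.66, SE 0.20, adjusted p = 0.143 by edgeR). NDUFB3, an accessory subunit of complex I, had a log2 fold change of 0.67 (SE 0.26, adjusted p = 0.206 by edgeR). That of SDHC, a membrane anchor of complex II, was 0.32 (SE 0.12, adjusted p = 0.19 by edgeR). COX5B of complex IV lay at 11.7, 33.5 and 16.6 CPM in the controls, against 13.2, 11.7 and 12.4 CPM in KD1 to KD3. Its groups overlapped, with control2 highest, and its log2 fold change was −0.73 (SE 0.35, adjusted p = 0.272 by edgeR).

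Proteins of the mitochondrial ribosome are the partners of the rRNAs. Of 79 tested genes 0 passed edgeR's test (6 at an unadjusted p under 0.05, beside 20.6% of all tested genes), DESeq2 called 1, beside 2.7% of its genes, and the median log2 fold change was 0.03, beside −1.28 and −0.75 for the rRNAs. MRPL18, a protein of the large subunit and the 1 that DESeq2 called, lay at 74.6, 72.2 and 68.0 CPM in the controls, against 113, 102 and 91.0 CPM in KD1 to KD3 (log2 fold change 0.51, SE 0.12, adjusted p = 0.11 by edgeR). MRPS14, of the small subunit, lay at 34.4, 37.0 and 37.5 CPM and at 26.6, 28.5 and 27.8 CPM (log2 fold change −0.40, SE 0.13, adjusted p = 0.155 by edgeR).

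Of the 8 transcription factors and terminators of mitochondrial DNA 0 passed edgeR's test (1 at an unadjusted p under 0.05, 0 by DESeq2, beside 20.6% and 2.7% of all genes). TFB2M, which melts the promoter, lay at 63.7, 68.2 and 70.2 CPM in the controls, against 82.4, 75.9 and 93.4 CPM in KD1 to KD3 (log2 fold change 0.32, SE 0.13, adjusted p = 0.207 by edgeR). TFAM, which packs the genome and bends the promoter, had a log2 fold change of 0.22 (SE 0.12, adjusted p = 0.301 by edgeR). The polymerase POLRMT lay at −0.07 and the elongation factor TEFM at −0.04 on the same scale (SE 0.20 and 0.21, edgeR adjusted p = 0.868 and 0.926). For TFB2M and TFAM every library labelled HHEX shRNA was above every control, KD3 included, as for 11.6% of all tested genes. Among 9 genes listed under mtDNA replication 0 passed edgeR's test (0 at an unadjusted p under 0.05 and 0 by DESeq2, read against the same shares). That list also holds TFB1M, which methylates mitochondrial rRNA (log2 fold change 0.04, SE 0.18, adjusted p = 0.922 by edgeR). TOP1MT, the mitochondrial topoisomerase, lay at 58.4, 63.0 and 64.3 CPM in the controls, against 35.9, 25.6 and 62.2 CPM in KD1 to KD3 (log2 fold change −0.59, SE 0.29, adjusted p = 0.282 by edgeR).

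Of 24 genes that cut, tail, modify or stabilise mitochondrial RNA 0 passed edgeR's test (7 at an unadjusted p under 0.05, beside 20.6% of all tested genes), and DESeq2 called 1, FASTKD5, beside 2.7% of its genes. That gene, which processes precursors lacking a tRNA at the joint, lay at 19.7, 19.0 and 17.1 CPM in the controls, against 30.4, 27.1 and 26.9 CPM in KD1 to KD3 (log2 fold change 0.60, SE 0.15, adjusted p = 0.109 by edgeR). FASTKD2, which binds MT-RNR2, lay at 34.1, 32.1 and 33.7 CPM and at 59.2, 52.9 and 37.8 CPM (log2 fold change 0.58, SE 0.18, adjusted p = 0.144 by edgeR). TRMT10C, a subunit of mitochondrial RNase P, lay at 0.53 on that scale (SE 0.16, adjusted p = 0.144 by edgeR). LRPPRC was at 353, 327 and 322 CPM in the controls, against 262, 265 and 399 CPM in KD1 to KD3, so KD1 and KD2 were below and KD3 above all controls, and its log2 fold change of −0.11 (SE 0.18) had an adjusted p = 0.753 by edgeR. Its partner SLIRP lay at 0.13 (SE 0.17, adjusted p = 0.694 by edgeR). Of the 9 regulators of mitochondrial biogenesis 0 passed edgeR's test (5 at an unadjusted p under 0.05, read against the same shares), and DESeq2 called PPARGC1B, a coactivator, at 8.74, 7.503 and 10.1 CPM in the controls and 12.7, 14.4 and 19.3 CPM (log2 fold change 0.82, SE 0.22, adjusted p = 0.123 by edgeR). NRF1, a transcription factor for nuclear mitochondrial genes, lay at 0.50 (SE 0.18, adjusted p = 0.184 by edgeR), and ESRRA, a nuclear receptor, at −0.66 (SE 0.24, adjusted p = 0.192 by edgeR).

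Markers of cell division also set KD1 and KD2 apart from the other 4 libraries. The 8 markers, among them MKI67 and TOP2A, summed to 2832 and 2923 CPM in KD1 and KD2, to 773 CPM in KD3 and to 961 to 1280.2 CPM in the controls. Their median log2 difference from the control mean stood at 1.40, 1.39 and −0.61 in KD1 to KD3, and 0 of 8 passed edgeR's test (1 at an unadjusted p under 0.05, 0 by DESeq2, beside 20.6% and 2.7% of all genes). The part of cell division in the mtDNA values was not tested.

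**Figure D5:**
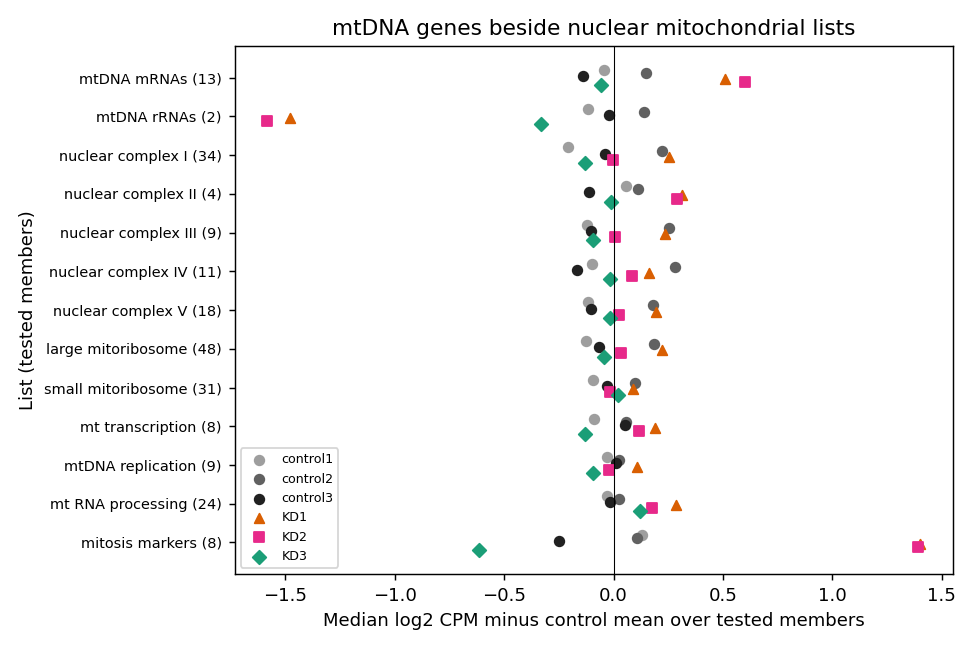
Median over the tested members of each list of log2 CPM minus the control mean, 1 point per library, with the number of tested members in brackets. KD1 and KD2 stand at 0.51 and 0.60 for mtDNA mRNAs and near −1.5 for mtDNA rRNAs, while the nuclear respiratory and mitoribosome lists stay between −0.21 and 0.31.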

How the data were processed

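The authors deposited 1 table with raw counts per gene, which are whole and sum differently in every library. For aligner, counter, strand setting and build, the sources used here give nothing. RNA was isolated with Trizol and made into libraries after mRNA capture, per the labels' protocols. A further 6 FPKM columns were not used. The columns show the group of a library only, and were assigned to groups without replicate numbers. Assembled loci without a gene name (0.239% to 0.298% of counts) stayed out of library sizes and tests.

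Differences were fitted in edgeR 4.0.16 (R 4.3.3): filterByExpr by group, TMM factors (0.975 to 1.05), glmQLFit with robust estimation and glmQLFTest without covariates, Benjamini-Hochberg over 14280 genes, threshold 0.05. SE is the fold change over the root of F. CPM use TMM factors, and log2 CPM a prior count of 2. CPM per kilobase divide by the span of the row, since these genes have no introns. Shares and ratios were compared by exact two-sided permutation tests (SciPy 1.17.1), with 12 in the family. DESeq2 1.42.0, other scalings, no filter and leaving out each library were alternatives. On simulated counts of the 14280 genes the fit recovered 64% of 2-fold and 99% of 4-fold changes with 19 false calls. Noise was drawn for each gene on its own, without a split of libraries shared by many genes. These rates therefore do not give the power in the real libraries, where KD1 and KD2 part from KD3.

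All 254 entries of the nuclear lists were matched. Every row with chromosome MT is described. Of each nuclear list the genes named are those with the smallest p, at most 3, besides POLRMT, TFAM, TFB1M, TFB2M, TEFM, LRPPRC and SLIRP. Nuclear copies are named from 10 CPM. The members and lists were chosen with earlier results of these data known. Reads carry no molecular identifiers, so floors cover counting error only.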

Additional observations from a re-analysis of the deposited data

How the results depend on the processing

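The number of mtDNA genes called was 0 under RLE, upper-quartile and no scaling (31, 35 and 37 genes called over the table). It was 0 as well with library sizes over nuclear genes only (26 called). With DESeq2 it was 1 (764 called) and without the filter on low counts 5 (1359 called). With 1 library left out it was 0 to 12, where 12 came without KD3 (4675 called) and 0 without any other library (0 or 1 called). The median log2 fold change of the 13 mRNAs was 0.32 to 0.41 under the other settings and 0.23 to 0.57 with 1 library left out, and the median of all tested genes was −0.08 to 0.01 over the scalings. MT-ND1, near 0, changed sign with RLE scaling (0.0139), with DESeq2 (0.0240) and without KD3, control2 or control3 (range with 1 library left out −0.0857 to 0.14), as MT-ND3 did without control2 (range −0.388 to 0.0600). With 1 library left out, the difference in the mtDNA share ranged from −0.179 to 0.092 percentage points, that of complex IV mRNAs from −0.0661 to 0.177, and that of the log2 ratio of MT-ND6 to heavy-strand mRNAs from −0.14 to 0.0412. Every other share and ratio kept its direction under these settings, with ranges of −0.65 to −0.359 percentage points for rRNAs and −1.77 to −0.86 for the log2 ratio of rRNAs to mRNAs. The cause of the changes was not tested. No paired analysis was possible because the columns do not carry the replicate labels of the samples. With 3 libraries a group the exact test cannot go below 0.1, and MT-ATP8, at 156 to 279 counts a library, was the least deeply counted of the 13 mRNAs.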
